A study of Mus musculus with 12 samples.

Results

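The genes described here are 39 interferon-stimulated effector genes, the proteins that carry out the antiviral response downstream of the interferon receptors. They were listed by symbol, and all 39 had a row among the 52962 gene rows of the count table. Of these, 35 exceeded 1 CPM (the reads of a gene after scaling every library to the same size) in at least 3 of the 12 samples and were tested, together with 15598 genes in all. The other 4, Ifit1bl1, Ifitm1, Trim30a and Ifi27l2a, were at or below 1.56 CPM in every sample and were not tested.

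RNA was sequenced from β-cells and non-β-cells of islets from female NOD mice at 4 and 8 weeks of age, with 3 replicates in each of the 4 groups. NOD is an inbred strain that develops autoimmune diabetes spontaneously, and the 4 groups share this genotype, with no treatment and no strain without the disease among them. In the study's account, the replicates of a group were separate pools of mice. By the study's methods, the islets spent a night in culture before they were dispersed for sorting. The cells were sorted by autofluorescence after removal of cells that carry CD45, the surface protein of leukocytes. The study places early myeloid infiltration and a surge of type I interferon genes in NOD mice at 4 weeks. It places intense leukocyte infiltration and T cell activation at 8 weeks. Age cannot be told apart from anything else that differed between the 2 harvests.

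Interferons are secreted when cells sense infection, bind paired receptors and activate Janus kinases, which phosphorylate transcription factors. A complex that includes STAT2 and IRF9 then binds the interferon-stimulated response element (ISRE) in the promoters of effector genes, while interferon-γ also acts through the gamma-activated site (GAS). The effectors conjugate ISG15 to proteins, bind foreign RNA, block entry and release of virus, or edit nucleotide pools and RNA. In islets an interferon signature is known to accompany autoimmune diabetes.

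The promoters of the effector genes were compared first at the sequence level, in RefSeq windows of 300 bases, 250 before the transcription start and 50 from the start on (build GRCm38.p6). An entry was present for 31 of the 39 genes, and none was given for Usp18, Mx1, Mx2, Parp9, Parp14, Ifi27, Ifi27l2a and Rtp4. On both strands, 11 of the 31 genes (35.5%) held an ISRE-like word (GAAA, any 2 bases, GAAA), against 3.99% of the 27025 genes with a window. A GAS-like word (TTC, any 3 bases, GAA) was held by 6 of the 31 genes (19.4%), against 9.55% of all genes, and it overlapped an ISRE-like word in Ifitm3 and in Bst2. Of the 9 tested genes with an ISRE-like word, 5 rose with age in non-β-cells and 2 in β-cells. Of the 19 tested genes whose windows held none, 10 and 8 did, beside 11.6% and 8.59% of all tested genes, so that members rose both with and without this word.

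Windows of 7 members are shown 5′ to 3′ on the gene's strand, with the ISRE-like words in capitals (on the other strand the word reads as its reverse complement). They were picked to set 4 genes that hold the word and rose in non-β-cells (Isg15, Ifit1, Ifitm3 and Rsad2) beside 2 that hold it and were not called (Bst2 and Trim21) and beside Samd9l, which rose in β-cells and holds none with this exact spacing. Other spacings were not searched, and the Samd9l window holds gaaactggaaa near its end. They lie at chr4:156200769-156201068 (Isg15, minus strand), chr19:34640639-34640938 (Ifit1, plus), chr7:141010695-141010994 (Ifitm3, minus), chr12:26456403-26456702 (Rsad2, minus), chr8:71537423-71537722 (Bst2, minus), chr7:102565433-102565732 (Trim21, minus) and chr6:3399522-3399821 (Samd9l, minus).
Isg15: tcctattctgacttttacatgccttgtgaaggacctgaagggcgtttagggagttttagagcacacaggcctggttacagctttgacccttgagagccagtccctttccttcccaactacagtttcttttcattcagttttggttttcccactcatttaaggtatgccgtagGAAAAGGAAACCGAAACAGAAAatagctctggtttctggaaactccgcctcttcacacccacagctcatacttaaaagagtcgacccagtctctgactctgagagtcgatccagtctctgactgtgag
Ifit1: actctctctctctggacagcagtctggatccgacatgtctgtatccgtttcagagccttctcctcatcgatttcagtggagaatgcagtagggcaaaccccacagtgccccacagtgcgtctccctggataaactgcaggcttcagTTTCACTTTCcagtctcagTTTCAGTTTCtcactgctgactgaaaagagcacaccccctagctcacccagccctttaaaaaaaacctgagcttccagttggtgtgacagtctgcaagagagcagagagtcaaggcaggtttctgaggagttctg
Ifitm3: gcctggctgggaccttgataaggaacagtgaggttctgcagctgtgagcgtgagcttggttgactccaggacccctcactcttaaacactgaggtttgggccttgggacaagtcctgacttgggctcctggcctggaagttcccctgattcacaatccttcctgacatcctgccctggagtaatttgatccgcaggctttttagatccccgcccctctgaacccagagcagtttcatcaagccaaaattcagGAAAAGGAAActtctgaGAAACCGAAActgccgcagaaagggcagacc
Rsad2: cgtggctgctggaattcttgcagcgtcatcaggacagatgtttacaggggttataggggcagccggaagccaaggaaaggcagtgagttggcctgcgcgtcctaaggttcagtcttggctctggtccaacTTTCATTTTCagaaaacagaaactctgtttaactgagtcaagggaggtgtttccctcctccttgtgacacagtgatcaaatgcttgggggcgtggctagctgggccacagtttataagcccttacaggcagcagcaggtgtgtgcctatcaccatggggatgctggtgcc
Bst2: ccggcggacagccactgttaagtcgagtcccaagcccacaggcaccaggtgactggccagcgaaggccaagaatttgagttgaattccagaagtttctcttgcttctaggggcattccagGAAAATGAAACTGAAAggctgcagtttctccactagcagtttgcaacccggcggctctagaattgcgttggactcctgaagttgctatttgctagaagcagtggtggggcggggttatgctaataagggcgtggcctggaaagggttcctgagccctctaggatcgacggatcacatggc
Trim21: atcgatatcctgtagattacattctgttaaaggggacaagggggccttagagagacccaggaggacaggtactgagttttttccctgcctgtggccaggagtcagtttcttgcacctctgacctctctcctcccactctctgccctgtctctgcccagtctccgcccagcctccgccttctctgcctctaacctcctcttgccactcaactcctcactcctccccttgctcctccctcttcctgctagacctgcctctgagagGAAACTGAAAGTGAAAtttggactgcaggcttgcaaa
Samd9l: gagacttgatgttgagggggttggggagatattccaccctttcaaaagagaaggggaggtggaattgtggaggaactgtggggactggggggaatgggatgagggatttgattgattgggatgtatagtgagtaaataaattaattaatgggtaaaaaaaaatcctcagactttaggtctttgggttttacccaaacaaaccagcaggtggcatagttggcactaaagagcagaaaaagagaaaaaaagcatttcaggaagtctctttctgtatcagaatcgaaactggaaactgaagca

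In Isg15 3 words overlapped, with first bases at positions -78, -72 and -66 from the start, and in Ifit1 the words stood at -104 and -85. Ifitm3 and Trim21 held theirs downstream of the annotated start, at bases 3 and 20 in Ifitm3 and at 14 and 20 in Trim21, counted from 1 at the start. The words of Bst2 overlapped at -130 and -124, and Rsad2 held 1 at -120.

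**Figure D1:**
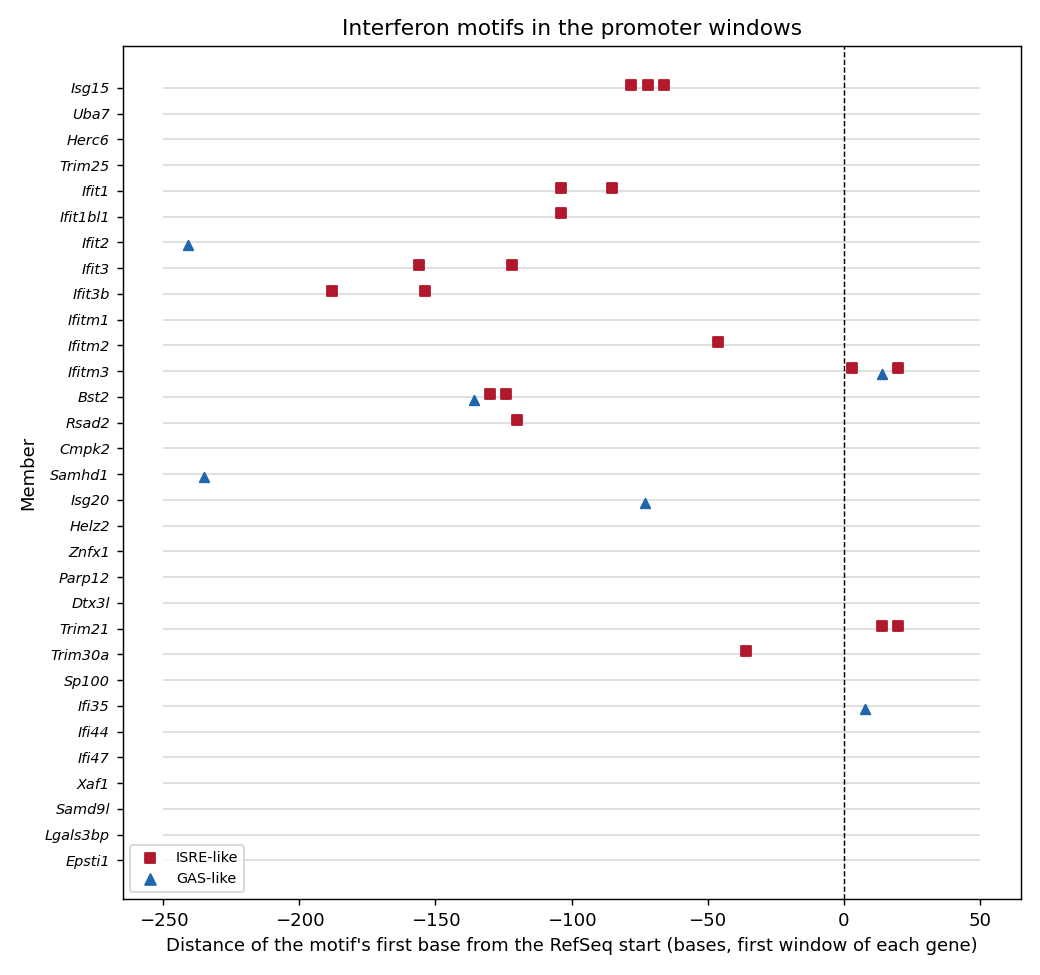
Each row is a member with a promoter window and the x axis is the distance in bases of a motif's first base from the RefSeq start (dashed line), for the first window of each gene. Squares mark ISRE-like words and triangles GAS-like words; the IFIT genes other than Ifit2 have theirs between -188 and -85, while Ifitm3 and Trim21 have theirs after the start.

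Sample totals ran from 13755106 to 27040652 estimated counts, and 1 count was worth 0.0377 to 0.0747 CPM, so that members near 1 CPM rest on few counts. The fractions carried their labels: the summed CPM of 8 β-cell markers was 46300 to 81300 in younger and 107000 to 113000 in older β samples (5 of the 8 called higher with age), against 2880 to 5840 in non-β samples, and that of 6 α-cell markers 1520 to 9410 and 106000 to 136000. The 20 leukocyte markers summed to 1.13 to 6.78 CPM over all 12 samples, and Ptprc, which encodes CD45, had 1 and 0 counts in the younger and older β samples together and 31 and 3 in the younger and older non-β samples. With age, all 6 endothelial and all 7 mesenchymal markers rose in non-β-cells, from summed levels of 40.1 to 75.6 and 102 to 294 CPM to 288 to 790 and 654 to 1050 CPM. The duct sum there was 565 to 756 and then 1870 to 2100 CPM (4 of 5 markers called) and the acinar sum was 34.2 to 83.9 and then 192 to 699 CPM (3 of 7 called). In β-cells the endothelial sum was 5.83 to 14.6 and then 11.5 to 15.7 CPM (0 of 6 called), and the mesenchymal sum 3.69 to 14.9 and then 25.7 to 52.4 CPM (1 of 7 called higher). The acinar sum in β-cells was 86.5 to 174 and then 404 to 856 CPM (5 of 7 called higher), and all 6 α-cell markers fell. The duct sum in β-cells was 830 to 1160 and then 1650 to 1770 CPM, with 1 of 5 markers called higher. Spp1 averaged 99.2 and then 943 CPM there, Krt7 857 and then 740 CPM and Krt19 9.63 and then 8.27 CPM, with Sox9 and Cftr under 1 CPM. The part of these shifts in the effector genes' changes was not tested, and in such bulk samples fewer cells of a type and less RNA per cell cannot be told apart.

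**Figure D2:**
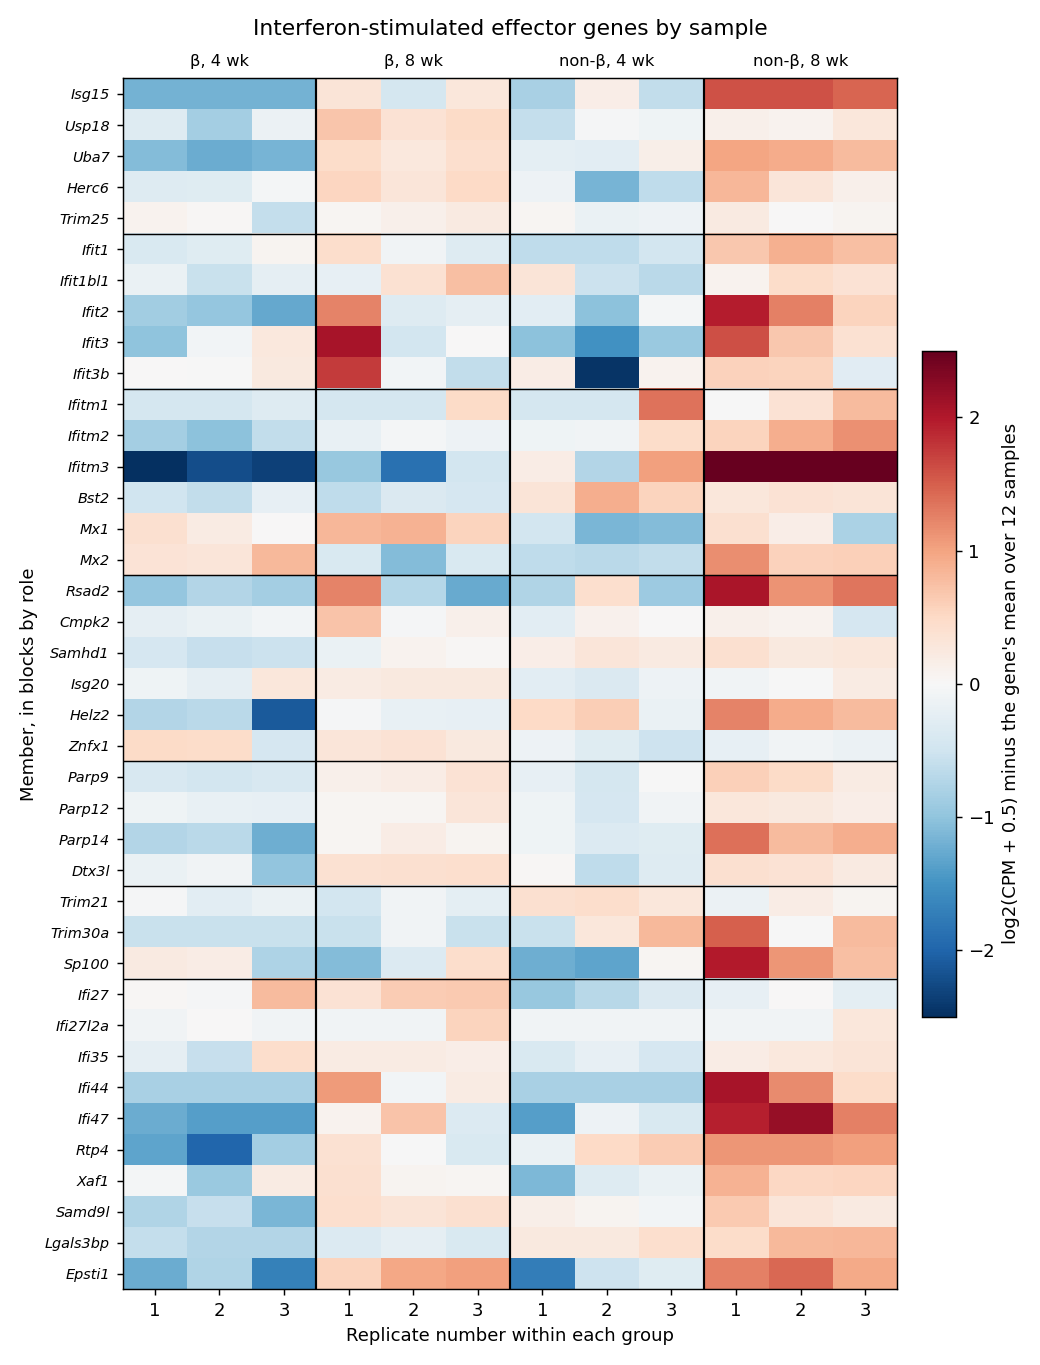
Rows are the 39 members, in blocks by role from the ISG15 system to the remaining genes, and columns the 12 samples; colour is log2(CPM + 0.5) minus the gene's mean over the 12 samples, clipped at the ends of the scale. Most rows shift towards red between 4 and 8 weeks within each fraction, though not all cross their mean: Lgals3bp stays blue in β-cells and red in non-β-cells. Replicate 1 of the 8-week β samples stands out for the IFIT genes and Rsad2.

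The first question was which effector genes changed between 4 and 8 weeks in β-cells. In the limma-voom fit, 14 of the 35 tested genes rose: Isg15, Usp18, Uba7, Ifitm2, Samhd1, Helz2, Parp9, Parp14, Dtx3l, Ifi44, Rtp4, Samd9l, Lgals3bp and Epsti1, while 8.59% of all tested genes rose. Mx2 alone fell, against 9.35% of all genes. The median log2 change of the 35 genes was 0.63, beside 0.02 over all genes. Since 4 tested genes (Isg15, Sp100, Ifi44 and Ifi47) were above 1 CPM only at 8 weeks and passed the filter through that age, the 31 others are also given, with 12 higher and a median of 0.56. These 31 still hold Epsti1 and Ifit2, which also needed 8-week samples to reach 3 above 1 CPM. Lowest and highest values did not overlap between ages, with 8 weeks above, for 21 of the 35 genes (background 20.7%), and with 8 weeks below for Mx2 only (background 19.6%). The called total of 15 was 9 with a 2-fold minimum and 9 without β 8-week replicate 2, where Mx2 was among those lost.

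In non-β-cells, 18 of the 35 genes rose: Isg15, Uba7, Herc6, Ifit1, Ifit2, Ifitm2, Ifitm3, Mx2, Rsad2, Parp9, Parp12, Parp14, Sp100, Ifi44, Ifi47, Xaf1, Lgals3bp and Epsti1 (background 11.6%). None fell (background 4.80%), although 3 estimates were negative and Trim21 reached an unadjusted p under 0.05, and edgeR and DESeq2 also called none lower. The median log2 change was 0.86, beside 0.01 over all genes. Without the 4 genes above 1 CPM only at 8 weeks, 14 of 31 rose with a median of 0.67, Epsti1 and Ifit2 still among them. The ages did not overlap for 27 genes with 8 weeks above (background 19%) and for Trim21 with 8 weeks below (background 13.8%). The count of 18 was 11 without non-β 4-week replicate 1 and 10 without non-β 8-week replicate 1, which was the highest of its 3 samples for 22 of the 35 genes.

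Set side by side, 8 genes rose in both fractions (Isg15, Uba7, Ifitm2, Parp9, Parp14, Ifi44, Lgals3bp and Epsti1), 6 were called higher in β-cells alone and 9 in non-β-cells alone, and 11 were called in neither. A call in 1 fraction alone is not a difference between fractions. The test of that difference, β change minus non-β change, passed for 3 genes: Samd9l on the β side (background 1.80%), and Ifit1 and Mx2 on the non-β side (background 3.33%). Mx2 alone was kept on leaving out β 8-week replicates 2 or 3, non-β 4-week replicates 1 or 2, or non-β 8-week replicates 2 or 3, each of which left 1 gene.

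**Figure D3:**
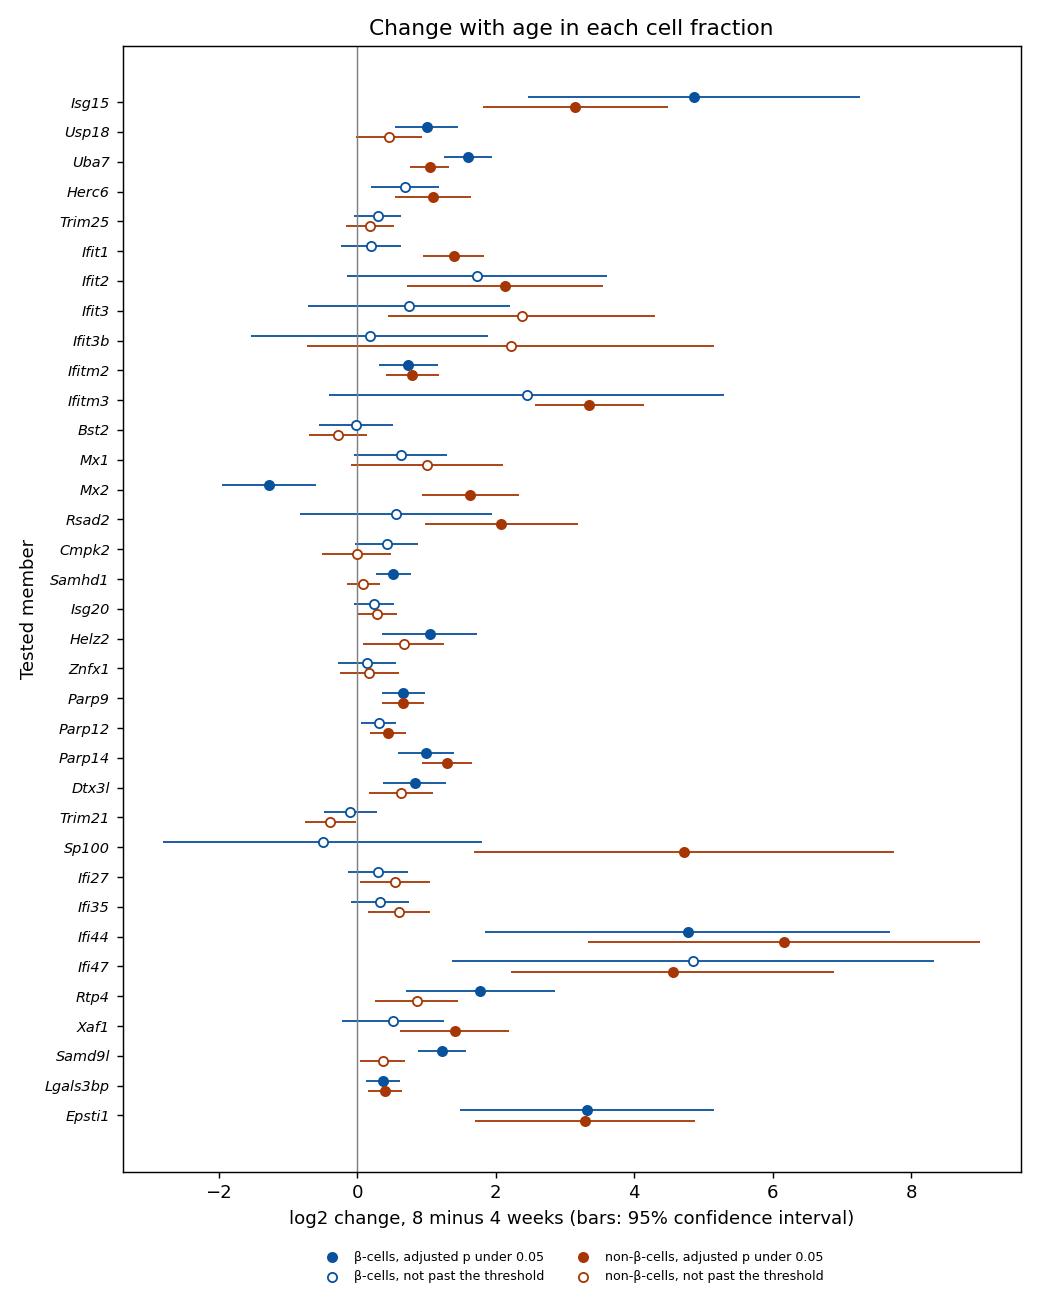
Points give the log2 change from 4 to 8 weeks of each tested member (blue, β-cells; brown, non-β-cells), bars its 95% confidence interval, and filled points an adjusted p under 0.05. Nearly all points lie right of 0, and the 2 intervals of Mx2 lie on opposite sides of 0; those of genes near 0 CPM at 4 weeks are wide.

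The ISG15 system attaches the ubiquitin-like protein ISG15 to other proteins through the activating enzyme UBA7 and, in mice, the ligase HERC6, and USP18 removes it. Isg15 (chr4:156199424-156200818, minus strand) was 0 CPM in all 3 β samples at 4 weeks and 0.925, 0.339 and 0.883 CPM at 8 weeks. In non-β-cells it was 0.153, 0.783 and 0.247 CPM and then 2.94, 2.91 and 2.62 CPM. The ages were separate in both fractions, and the older non-β samples were the highest and the only ones through which Isg15 passed the filter. Against a floor of 3 counts over the group, 51 counts at 8 weeks put Isg15 at least 15.5-fold higher in β-cells (adjusted p = 0.00945). Its log2 change in the other fraction was 3.15 (SE 0.62, adjusted p = 0.0032).

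Uba7 (chr9:107975505-107984060) gave the firmest change in β-cells, from 9.82, 8.76 and 9.22 CPM to 29.7, 25.7 and 28.9 CPM, or 1.60 on the log2 scale (SE 0.16, adjusted p = 2.48e-05). In non-β-cells it went from 18, 17.6 and 23.7 CPM to 42.9, 40.8 and 37.4 CPM, or 1.05 on that scale (SE 0.13, adjusted p = 0.000123). Every 8-week sample was above every 4-week sample of its fraction, and the difference between the 2 changes was not called (0.55, adjusted p = 0.159). Usp18, which also dampens signalling at the type I interferon receptor, rose in β-cells (log2 change 1.00, SE 0.21, adjusted p = 0.0057) and gave 0.45 in non-β-cells (adjusted p = 0.196). Herc6 rose in non-β-cells by 1.09 (SE 0.25, adjusted p = 0.0095) and was not called in β-cells, with 0.69 (adjusted p = 0.0528), and some of its transcript sequence is shared with the overlapping gene Gm45193. Trim25, a ligase that activates the RNA sensor RIG-I, was at 38.5 to 69.0 CPM throughout and was called in neither.

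IFIT proteins bind the 5′ ends of foreign RNA and the genes lie side by side on chromosome 19. Ifit1 (chr19:34640871-34650009) was 10.2, 10.9 and 14.2 CPM in the younger β samples and 18.4, 12.6 and 10.7 CPM at 8 weeks, so that the ages overlapped. In non-β-cells it was 8.45, 8.51 and 9.66 CPM and then 21.8, 25.5 and 23.1 CPM. The log2 changes were 0.20 (SE 0.20, adjusted p = 0.532) and 1.39 (SE 0.21, adjusted p = 0.000383), and they differed by -1.19 (SE 0.29, adjusted p = 0.0293). The difference was not called in 7 of 22 alternative fits, which left out 1 sample each, where its adjusted p reached 0.0831.

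Ifit2 was 0.713, 0.634 and 0.413 CPM in the younger β samples and 4.72, 1.28 and 1.40 CPM at 8 weeks, and 1.34, 0.587 and 1.63 CPM and then 8.18, 4.78 and 2.77 CPM in non-β-cells. It rose in non-β-cells (log2 change 2.14, SE 0.66, adjusted p = 0.0409), a call lost in 13 of 23 alternatives, and gave 1.72 in β-cells (SE 0.87, adjusted p = 0.198). By edgeR and DESeq2 the rise of Ifit2 in β-cells was called (adjusted p = 0.0415 and 0.00968). Ifit3 was 1.88, 4.08 and 5.23 CPM and then 19.6, 2.98 and 4.33 CPM in β-cells, and 1.87, 1.17 and 2.02 CPM and then 14.2, 7.17 and 5.70 CPM in non-β-cells. The ages separated in non-β-cells and overlapped in β-cells, where 8-week replicate 1 stood far above the others. Ifit3 and Ifit3b cannot be read apart with confidence, since 61.8% of the 31-base words of Ifit3 transcripts also occur in Ifit3b. Summed, the pair gave 4.12, 6.30 and 7.98 CPM and then 28.3, 5.09 and 5.61 CPM in β-cells, and 4.47, 1.17 and 4.44 CPM and then 17.8, 10.7 and 7.45 CPM in non-β-cells, with adjusted p = 0.58 and 0.123. For Ifit3 alone in non-β-cells, limma-voom gave a log2 change of 2.37 (adjusted p = 0.0919). By edgeR and DESeq2 this rise was called (adjusted p = 0.031 and 0.00145). Ifit1bl1 stayed at 0 to 0.842 CPM and was not tested.

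That β 8-week replicate 1 was more than 2-fold above both other samples of its group for 5 of the 35 genes (Ifit2, Ifit3, Ifit3b, Rsad2 and Ifi44), against 1.89% of all tested genes. It was the highest of its group for 15 of the 35 genes, those 5 included, and the lowest for 12. Without it, 10 of the 34 genes then tested were called with age in β-cells.

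**Figure D4:**
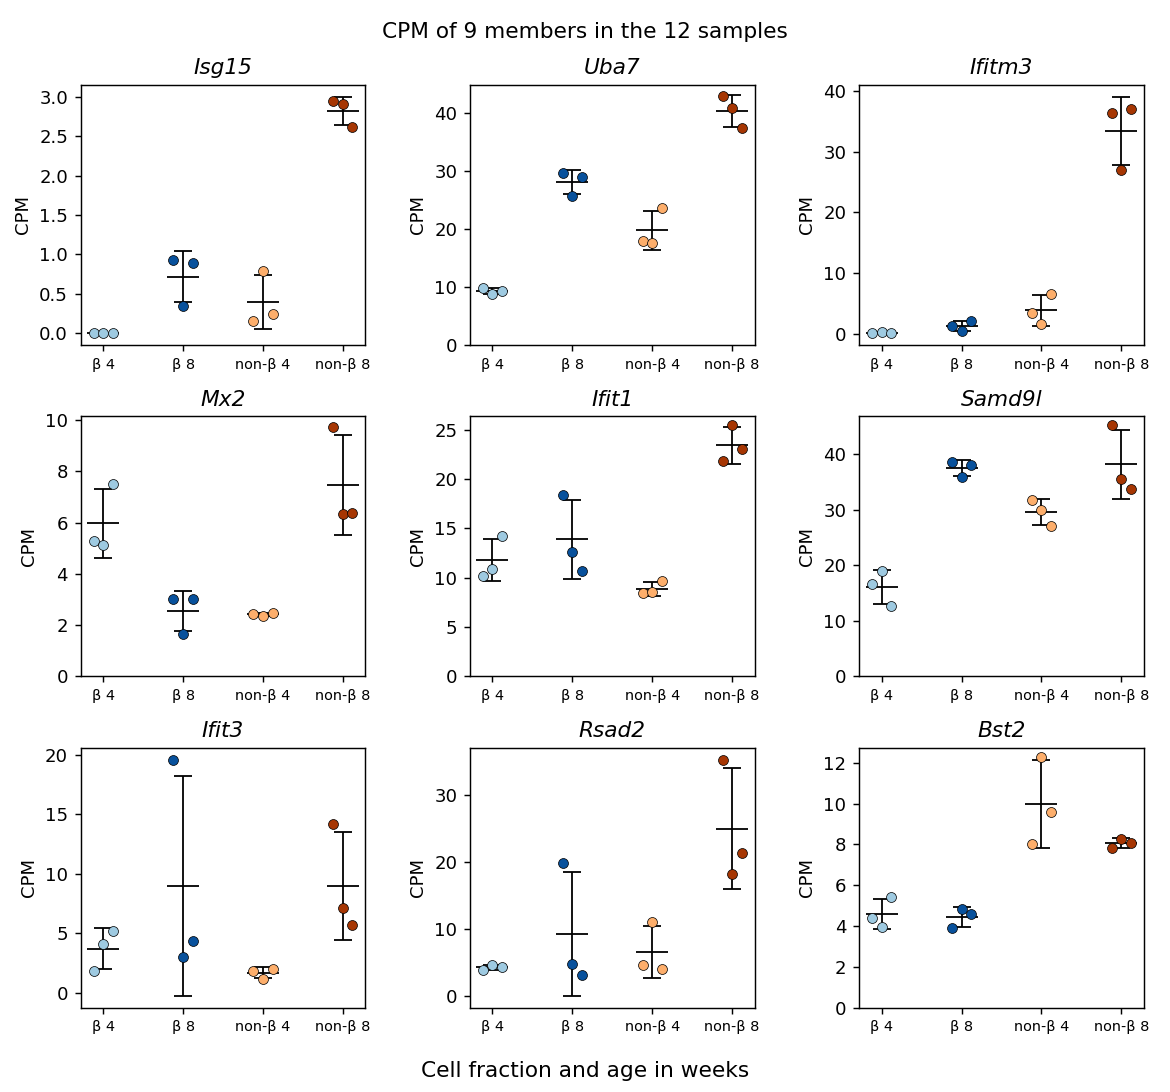
CPM of 9 members in each of the 12 samples (points), with the group mean and SD over 3 replicates (bars), by cell fraction and age in weeks. Uba7 separates the ages in both fractions, Mx2 moves down in β-cells and up in non-β-cells, and a single high sample carries the 8-week β mean of Ifit3 and Rsad2.

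Among genes that restrict entry, replication and release, the IFITM proteins sit in membranes and block virus fusion, MX proteins are dynamin-like GTPases that trap viral particles, and BST2 (tetherin) holds budding virions at the surface. Ifitm3 (chr7:141009586-141010770, minus strand) was 0.102, 0.238 and 0.183 CPM in the younger β samples and 1.30, 0.452 and 2.01 CPM at 8 weeks. In non-β-cells it was 3.40, 1.57 and 6.56 CPM and then 36.4, 27 and 37.0 CPM. It rose 10.2-fold in non-β-cells (log2 3.35, SE 0.37, adjusted p = 3.8e-05), beside the rise of the endothelial and mesenchymal markers given above. In β-cells the ages did not overlap, yet the change was not called by limma-voom (log2 2.45, SE 1.32, adjusted p = 0.229). Both edgeR and DESeq2 called that rise (adjusted p = 0.0186 and 0.000295). Ifitm2 rose in both, from 18.9 to 25.3 CPM to 34.4 to 37.9 CPM in β-cells and from 36.2 to 53.7 CPM to 57.6 to 87.4 CPM in non-β-cells, with 38.1% of its 31-base words shared with Gm45717, and the call in β-cells was lost in 5 of 23 alternatives. Ifitm1 stayed at 0 to 1.23 CPM.

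Mx2 (chr16:97535308-97560900) was the only member called in opposite directions. It was 5.29, 5.11 and 7.52 CPM in the younger β samples and 3.01, 1.66 and 3.01 CPM at 8 weeks. In non-β-cells it was 2.45, 2.35 and 2.47 CPM and then 9.74, 6.35 and 6.37 CPM. Neither pair of ages overlapped, and the fraction with more Mx2 changed from β-cells at 4 weeks to non-β-cells at 8 weeks. The log2 changes were -1.27 (SE 0.31, adjusted p = 0.0144) and 1.63 (SE 0.33, adjusted p = 0.0035), and their difference was -2.90 (SE 0.45, adjusted p = 0.0024), which was called in all 22 alternatives, at -3.06 to -2.60. Mx2 is annotated as a polymorphic pseudogene in the reference strain, and 7.96% of its 31-base words also occur in Mx1. Mx1, on the same chromosome, was 3.36, 2.89 and 2.43 CPM and then 4.72, 4.86 and 3.81 CPM in β-cells, and 1.64, 0.832 and 0.887 CPM and then 3.38, 2.76 and 1.18 CPM in non-β-cells. Its ages separated in β-cells and overlapped in non-β-cells, and neither change was called (log2 0.63, adjusted p = 0.188, and 1.01, adjusted p = 0.218). Bst2 was 4.38, 3.96 and 5.41 CPM and then 3.89, 4.82 and 4.61 CPM in β-cells, and 8.03, 12.3 and 9.61 CPM and then 7.83, 8.29 and 8.07 CPM in non-β-cells. It was higher in non-β-cells and its ages overlapped in both fractions.

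Genes of nucleotide and RNA metabolism moved in part. Rsad2 encodes viperin, which makes a chain-terminating nucleotide, and was 3.92, 4.68 and 4.31 CPM and then 19.9, 4.79 and 3.13 CPM in β-cells, and 4.63, 11.1 and 4.14 CPM and then 35.3, 18.3 and 21.4 CPM in non-β-cells. It rose in non-β-cells (log2 2.08, SE 0.51, adjusted p = 0.013) and in β-cells only replicate 1 was high (log2 0.56, SE 0.64, adjusted p = 0.597). Cmpk2, its neighbour on chromosome 12 and a mitochondrial nucleotide kinase, was 10.7, 13.9 and 13.0 CPM in the younger non-β samples and 14.2, 13.7 and 9.51 CPM at 8 weeks, a log2 change of -0.01 (95% interval -0.50 to 0.49). In β-cells Cmpk2 was 11.0, 11.5 and 12.3 CPM and then 21.6, 12.7 and 14.2 CPM, without a call (adjusted p = 0.194).

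Samhd1, which degrades deoxynucleotides, rose in β-cells (log2 0.52, SE 0.12, adjusted p = 0.0091) and gave 0.09 in non-β-cells, and the difference was not called (adjusted p = 0.163). Helz2, a helicase, rose in β-cells from 25.4, 26.5 and 9.63 CPM to 41.6, 37.6 and 36.9 CPM (log2 1.04, SE 0.32, adjusted p = 0.037), a call lost in 9 of 23 alternatives. Sample 3 at 4 weeks was low for this gene in both fractions, at 0.371 of the mean of the other β samples and 0.604 of that of the other non-β samples. Isg20, an exonuclease, and Znfx1, a sensor of foreign RNA, were well expressed, at 71.3 to 111.0 and 85.0 to 171.0 CPM, and were called with age in neither fraction. The younger β replicate 3 was at 1.37 of the mean of the other β samples for Isg20 and at 0.539 for Znfx1. Without both 4-week samples numbered 3, Isg20 was called higher with age in β-cells (log2 0.40, adjusted p = 0.00842) and in non-β-cells (log2 0.36, adjusted p = 0.0165), while the estimate for Znfx1 in β-cells went from 0.14 to -0.16 and was not called.

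PARP9 works in a complex with the ubiquitin ligase DTX3L, and PARP12 and PARP14 attach single ADP-ribose units to proteins. Parp9 rose by 0.66 on the log2 scale in each fraction (SE 0.14 in both), with adjusted p = 0.00709 in β-cells and adjusted p = 0.00595 in the other fraction, and the 2 changes differed by 0.003 (95% interval -0.44 to 0.44). Parp14 rose from 17.6, 18.4 and 12.3 CPM to 30.3, 33.7 and 30.9 CPM in β-cells and from 27.4, 23.3 and 23.7 CPM to 77.0, 51.2 and 55.7 CPM in non-β-cells, with log2 changes of 0.99 (SE 0.19, adjusted p = 0.0032) and 1.30 (SE 0.17, adjusted p = 0.00017). Every 8-week sample was above every 4-week sample. Dtx3l rose in β-cells (log2 0.83, SE 0.21, adjusted p = 0.0166), a call lost in 2 of 23 alternatives, and missed the threshold in non-β-cells (0.63, adjusted p = 0.062). The younger β samples were at 25.7, 27.1 and 14.3 CPM for Dtx3l, and without both 4-week samples numbered 3 its β change was 0.53. Parp12 rose in non-β-cells (0.44, SE 0.12, adjusted p = 0.0223), a call lost in 7 of 23 alternatives, and gave 0.31 in β-cells (adjusted p = 0.0855). Parp9 and Dtx3l overlap in their exons on opposite strands, and it is not stated whether the counting used strand, so their reads may be mixed.

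Of the TRIM and nuclear body genes, Trim21, a cytosolic antibody receptor, was 7.94, 6.66 and 7.11 CPM and then 5.74, 7.58 and 6.74 CPM in β-cells, and 10.9, 11.2 and 9.91 CPM and then 7.27, 9.26 and 8.53 CPM in non-β-cells. All 3 older non-β samples were below the younger, but the change was not called (log2 -0.39, SE 0.17, adjusted p = 0.149), and in β-cells it was -0.10 (adjusted p = 0.745). Sp100, a nuclear body component, was 0.967, 0.912 and 0.229 CPM and then 0.0925, 0.490 and 1.2 CPM in β-cells, and 0.0383, 0 and 0.789 CPM and then 4.46, 2.17 and 1.59 CPM in non-β-cells. It rose in non-β-cells (log2 4.72, SE 1.40, adjusted p = 0.0348), from 17 counts over the group, 16 of them in replicate 3, to 163, or from a mean of 0.276 to 2.74 CPM. The fitted change ran from 3.32 to 6.16 over the alternatives and the call was lost in 7 of 23. Its estimate in β-cells was -0.50, and the difference between the changes of the fractions was not called (-5.22, adjusted p = 0.119), except with sample quality weights and without both 4-week samples numbered 3 (-7.29, adjusted p = 0.0314). Trim30a was 0 CPM in β-cells except at 8 weeks in replicate 2 (0.188 CPM), and 0, 0.391 and 0.789 CPM and then 1.56, 0.224 and 0.771 CPM in non-β-cells.

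In the remaining group, Ifi44 (chr3:151730922-151749960, minus strand) was 0 CPM in all 6 samples at 4 weeks. At 8 weeks it was 1.34, 0.339 and 0.522 CPM in β-cells and 3.16, 1.49 and 0.719 CPM in non-β-cells. From the floor of 3 counts it was at least 15.5-fold higher in β samples (adjusted p = 0.0278, not called in 4 of 19 alternatives) and at least 42.6-fold higher in the non-β samples (adjusted p = 0.0054). Ifi47, an immunity-related GTPase, was 0.0509, 0 and 0 CPM and then 0.879, 1.62 and 0.522 CPM in β-cells, that is 1 count and then 75, and missed the threshold by limma-voom (adjusted p = 0.0543). By edgeR and DESeq2 that rise was called (adjusted p = 0.0126 and 0.000514). In non-β-cells Ifi47 was 0, 0.685 and 0.493 CPM and then 4.5, 5.38 and 2.62 CPM, and rose (log2 4.55, SE 1.08, adjusted p = 0.0104). Both genes separated the ages in both fractions, at low levels.

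Epsti1 rose in both fractions, from 0.305, 0.634 and 0.0917 CPM to 2.31, 3.24 and 3.37 CPM in β-cells (log2 3.32, SE 0.85, adjusted p = 0.017) and from 0.0765, 0.832 and 1.04 CPM to 4.07, 4.63 and 3.19 CPM in non-β-cells (log2 3.28, SE 0.73, adjusted p = 0.0073). The changes differed by 0.04 with a wide interval of -2.39 to 2.46, and by -1.28 without both 4-week samples numbered 3. The change in non-β-cells ran from 2.00 to 4.36 over the alternatives. Samd9l (chr6:3372257-3399572, minus strand), an antiviral inhibitor of translation, was 16.7, 18.9 and 12.7 CPM and then 38.7, 35.9 and 38.1 CPM in β-cells, and 31.7, 30 and 27.1 CPM and then 45.2, 35.6 and 33.7 CPM in non-β-cells. The 8-week samples of the 2 fractions lay at like levels, while at 4 weeks every β sample was below every non-β sample. Its log2 changes were 1.23 (SE 0.16, adjusted p = 0.000229) and 0.37 (SE 0.15, adjusted p = 0.119), and the difference of 0.86 (SE 0.22, adjusted p = 0.0392) was called in 11 of 22 alternatives.

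Rtp4 rose in β-cells (log2 1.78, SE 0.50, adjusted p = 0.0267), a call lost in 5 of 23 alternatives, and just missed in non-β-cells (0.86, adjusted p = 0.0511). Xaf1, a binding partner of the apoptosis inhibitor XIAP, rose in non-β-cells (1.41, SE 0.36, adjusted p = 0.0167) and gave 0.52 in β-cells (adjusted p = 0.33). Lgals3bp, a secreted glycoprotein and the most abundant member per kilobase of exon (152 and 196 CPM per kilobase in younger and older β samples, 301 and 399 in younger and older non-β samples), rose slightly in both fractions, by log2 changes of 0.37 (SE 0.11, adjusted p = 0.0353) and 0.40 (SE 0.11, adjusted p = 0.0253), calls lost in 9 and 6 of 23 alternatives. Ifi27, a mitochondrial protein, and Ifi35 were called in neither fraction, and their highest 4-week β value was in replicate 3. Without both 4-week samples numbered 3, limma-voom called both genes higher with age in β-cells (log2 0.57 and 0.62, adjusted p = 0.00485 and 0.00488). It also called both in non-β-cells (log2 0.70 and 0.57, adjusted p = 0.00523 and 0.00796). Ifi27l2a was at 0 CPM in 9 of the 12 samples and at 0.281 CPM at most.

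The next question was how the 2 fractions differed at each age. At 4 weeks 3 genes were higher in β-cells (Mx1, Mx2 and Ifi27, background 24.9%) and 12 lower (background 23.7%). At 8 weeks 2 were higher (Mx1 and Ifi27, background 23.6%) and 16 lower (background 25.6%). The median log2 difference was -0.20 and then -0.53, beside 0.01 over all genes at 8 weeks. Without the 4 genes above 1 CPM only at 8 weeks, 11 were lower at 4 weeks and 13 at 8 weeks, with medians of -0.20 and -0.33. The fold was at least 2 for 8 of the 15 genes called at 4 weeks and for 10 of the 18 at 8 weeks. At 4 weeks only the samples numbered 3 deviated together and apart from the others, so equal numbers are not shown to be pairs. In an alternative fit with the number as a block, Isg20 (log2 0.24, adjusted p = 0.037) and Znfx1 (log2 0.51, adjusted p = 0.000967) were also higher in β-cells at that age.

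Ifitm3 was lower in β-cells, with log2 differences of -4.10 (SE 1.24, adjusted p = 0.0153) at 4 weeks and -5.00 (SE 0.59, adjusted p = 1.46e-05) at 8 weeks. Isg15, with the younger β samples at 0 CPM, was at -3.83 (SE 1.18, adjusted p = 0.0169) and -2.115 (SE 0.48, adjusted p = 0.0026). Its call at 4 weeks was lost in 2 of 20 alternatives. Rtp4 was at -2.11 (SE 0.49, adjusted p = 0.0035) and -1.20 (SE 0.29, adjusted p = 0.0041), and Helz2 at -1.51 (SE 0.31, adjusted p = 0.0016) and -1.14 (SE 0.28, adjusted p = 0.004). For Ifitm3, Rtp4 and Helz2 every β sample was below every non-β sample of its age. Ifi27 was higher in β-cells at both ages, by 0.96 (SE 0.22, adjusted p = 0.0034) and 0.72 (SE 0.21, adjusted p = 0.0128), and Mx1 by 1.35 (SE 0.47, adjusted p = 0.031) and 0.98 (SE 0.36, adjusted p = 0.0388), calls lost in 5 and 11 of 23 alternatives. Mx2 was higher in β-cells at 4 weeks (1.27, SE 0.33, adjusted p = 0.0063) and lower at 8 weeks (-1.64, SE 0.31, adjusted p = 0.00079).

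**Figure D5:**
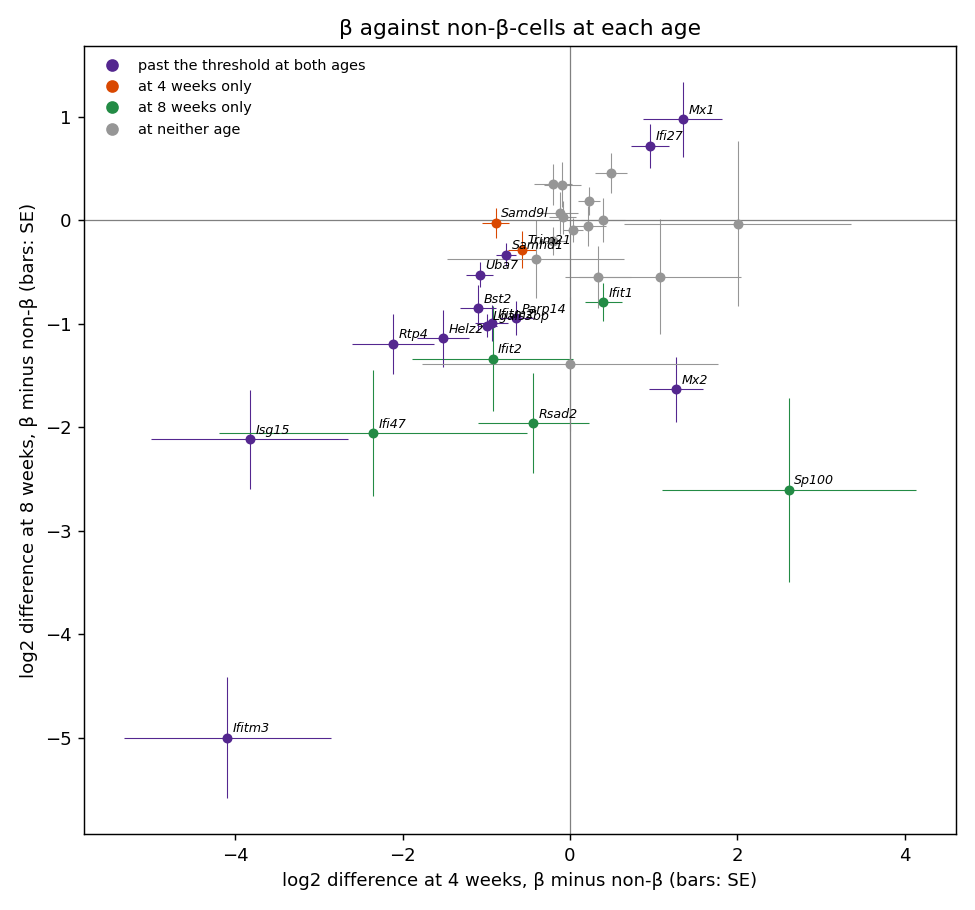
The log2 difference of each tested member between β-cells and non-β-cells at 4 weeks (x axis) and 8 weeks (y axis), with SE bars; colours mark the ages at which the adjusted p was under 0.05. Most called members lie at lower left, Mx1 and Ifi27 at upper right, and Mx2 at lower right.

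Levels across members, compared as CPM per kilobase of exon, ran over several orders. After Lgals3bp, Ifitm2 was at 33.4, 55.1, 64.5 and 112 CPM per kilobase in younger and older β samples and in younger and older non-β samples, Isg20 at 49.1, 57.4, 41.4 and 50.7, and Ifi27 at 25.7, 30.5, 13.1 and 18.7. Isg20 was above Ifitm2 in β-cells at 4 weeks and below it in non-β-cells at both ages, and in β-cells at 8 weeks the 2 did not differ beyond their spread. Ifitm3 was at 0.257, 1.85, 5.67 and 49.3 CPM per kilobase, so that it ran from among the lowest members to about the level of Isg20. Ifi35, Parp12 and Trim25 lay within 8.73 to 15.5 CPM per kilobase in every group.

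The machinery upstream of the effectors was read from a list, of which 25 genes are reported and 15 of these were tested. The 10 ligands were all untested: 9, among them Ifnb1 and Ifng, had no count in any sample, and Ifnk averaged 0.0856 CPM in non-β-cells at 8 weeks. In β-cells 5 of the 15 rose with age (Stat2, Irf9, Irf1, Irf7 and Socs3; background 8.59%). In non-β-cells 6 rose (Ifngr1, Ifngr2, Jak1, Irf1, Irf7 and Socs3; background 11.6%). By limma-voom, edgeR and DESeq2 alike, 0 of the 15 were called lower in either fraction (background 9.35% and 4.80%), and at an unadjusted p under 0.05 only Ifngr1 in β-cells was.

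Irf7, which amplifies type I interferon, rose by 1.45 on the log2 scale in β-cells (SE 0.35, adjusted p = 0.0136) and by 1.63 in non-β-cells (SE 0.23, adjusted p = 0.000316). The fractions differed for Irf1, a target of interferon-γ signalling, which went from 40.1 ± 0.502 to 72.2 ± 2.98 CPM (SD, n = 3) in β-cells and from 74.5 ± 8.99 to 441 ± 17.9 CPM in non-β-cells, a difference of -1.73 in log2 change (SE 0.15, adjusted p = 2.99e-05). The interferon-γ receptor genes Ifngr1 and Ifngr2 rose in non-β-cells (0.54 and 0.52, adjusted p = 0.0069 and 0.0060) and gave -0.27 and -0.22 in β-cells, and the difference was called for both (adjusted p = 0.0123 and 0.0149). Socs3, a feedback inhibitor, rose in both and more in β-cells (difference 0.92, SE 0.20, adjusted p = 0.0194). The type I receptor genes Ifnar1 and Ifnar2 were at 34.9 to 42.8 and 40.1 to 56.5 CPM on average and were not called with age.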

How the data were processed

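The authors deposited a table of estimated counts, unscaled and unfiltered, with genes in rows. Per the labels and the study's methods, reads of strand-specific low-input total RNA libraries were trimmed with fastp, assigned to mouse transcripts (Ensembl, GRCm38) with kallisto and summed to genes. Versions of fastp and kallisto are not given in the sources used here, and 14.0 to 19.3% of values per sample were not whole. Kallisto divides reads between near-identical transcripts, so members with shared sequence are uncertain, and whether strand was used is not stated.

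Counts were rounded, genes with a CPM above 1 in at least 3 samples kept (15598 genes) and libraries scaled by TMM (edgeR 4.0.16). One limma-voom model (limma 3.58.1, R 4.3.3) of all 12 samples with 4 group means gave two-sided p-values, adjusted by Benjamini-Hochberg over all 15598 genes, with 0.05 as the threshold. Symbols and coordinates came from GENCODE M21 (same build), which paired 52002 of 52962 rows. CPM per kilobase divides by the merged exon length. Bounds against 0 use 3 counts over the group and, like all count limits, cover counting error only. The model was tested on simulated counts.

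The groups came from the labels. The members and lists were chosen with earlier results of these data known. Of the pathway list, 1 gene is not reported here. All members are named, and values per sample are given for the 3 largest and 3 smallest age changes per fraction, those with a called interaction, opposite calls or no test. Values per sample of Uba7, Ifit2, Ifit3, Ifitm3, Mx1, Rsad2, Helz2, Parp14 and Epsti1, and the 7 promoters, were chosen after values were seen. The replicate digit in the labels is not said to mark a shared preparation. Over 12749 genes with a mean log2 CPM above 1, deviations from the group means in samples of equal number gave correlations between the fractions of 0.22, 0.28 and 0.52 at 4 weeks, but 0.06, 0.13 and -0.02 at 8 weeks (over all 15598 genes, 0.08, 0.13 and 0.31 at 4 weeks). Over all genes at 4 weeks, β sample 1 with non-β sample 2 gave 0.097, and β sample 2 with non-β sample 1 gave 0.114. Samples numbered 3 gave -0.23 to -0.151 with the other numbers. Equal numbers are thus not shown to be pairs, and the block was run only as an alternative. Alternatives were edgeR and DESeq2 1.42.0 tests, other scalings, filters and thresholds, sample weights, the block, only the groups compared, summed copies, and samples left out.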

Additional observations from a re-analysis of the deposited data

Results flagged for a closer look

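The difference between the age changes of the fractions (β minus non-β) passed its own test for 3 genes. For Mx2 the difference was -2.90 on the log2 scale, with the change downward in β-cells and upward in non-β-cells. For Ifit1 it was -1.19, from a rise in non-β-cells and overlapping ages in β-cells. For Samd9l it was 0.86, from a larger rise in β-cells. Mx2 was called in all 22 alternative fits, Ifit1 in all but 7 and Samd9l in all but 11.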

How the results depend on the processing

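No called gene changed direction under the alternatives run. Calls were also gained: by both edgeR and DESeq2, Ifit2, Ifitm3 and Ifi47 rose with age in β-cells, and Ifit3 in non-β-cells. With at least a 2-fold change required, the genes called with age in β-cells were 9 rather than 15, those between fractions at 4 weeks 8 rather than 15, and those at 8 weeks 10 rather than 18. Leaving out 1 sample at a time, the calls ran from 9 to 16 with age in β-cells, from 10 to 23 with age in non-β-cells, from 1 to 3 for the difference between these changes, from 11 to 15 between fractions at 4 weeks and from 14 to 19 at 8 weeks. Of the called genes, 7 of 15, 10 of 18, 1 of 3, 10 of 15 and 13 of 18 were called in each of these fits that tested them. Isg15 and Ifi44 fell below the low-count filter and went untested in some of these fits, which is not counted here as a lost call. The lowest counts came without β 8-week replicate 2 (9 with age in β-cells) and without non-β 8-week replicate 1 (10 in non-β-cells; 11 without non-β 4-week replicate 1). With the replicate number as a block, 16, 16, 3, 17 and 17 genes were called, and this block gained Isg20 and Znfx1 between fractions at 4 weeks. Without both 4-week samples numbered 3, 18 and 23 genes were called with age in β-cells and non-β-cells. Genes under 1 CPM rest on few counts, where depth limits both calls and folds, and near-identical copies limit Ifit3, Ifit3b and Ifitm2.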
